A study of Mus musculus with 8 samples.

Results

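The heat shock and DnaJ chaperones of mouse liver were compared between 4 Amacr-/- and 4 wild-type animals. Members were taken by gene symbol alone: every probe set whose symbol began with Hsp90, or with Dnaja, Dnajb, Dnajc, Hspa, Hspb, Hspd, Hspe, Hsph or Hsf followed by a digit. This gave 68 genes with 1 probe set each, of 16492 probe sets tested. They were 4 Dnaja, 12 Dnajb, 25 Dnajc, 13 Hspa, 7 Hspb and 4 Hsf symbols, and Hspe1, Hsph1 and Hsp90b1. Hspd1, Hsp90aa1, Hsp90ab1, Hspb1, Hsf1 and Dnajc25, which belong to the same families, were not analysed here. All animals were male C57BL/6 mice aged 3 to 3.5 months, and the labels call the 4 arrays of each genotype biological replicates. The racemase that Amacr encodes turns branched-chain fatty acids and bile acid intermediates into the form that can be shortened. No treatment was named in the labels, and the sources used here did not give the allele, the hour of collection or the feeding state.

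HSP70 proteins, encoded by most Hspa genes, bind unfolded stretches of other proteins and release them in a cycle driven by ATP. DnaJ proteins bring clients to HSP70 and start ATP hydrolysis, and nucleotide exchange factors such as HSP110 end the cycle. Small heat shock proteins, encoded by most Hspb genes, hold unfolding proteins without ATP. HSP90 proteins act late in folding, and heat shock factors switch on the stress-inducible members. In hepatocytes, which secrete most plasma proteins, the chaperones of the endoplasmic reticulum fold the secreted load.

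The values were log2 RMA intensities, and array medians lay between 6.62 and 6.66. Amacr itself lay between 11.68 and 12.06 in wild type and between 5.23 and 5.52 in the knockout, so every array went with its label. The mean log2 level of 8 hepatocyte markers lay between 13.84 and 13.86 in wild type and between 13.78 and 13.82 in the knockout, and these were livers by that measure. Array quality weights ranged from 0.9349 to 1.753, except 0.2998 for knockout replicate 2. In whole tissue, fewer cells of a type and less RNA per cell cannot be told apart.

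No heat shock or DnaJ gene passed the threshold, an adjusted p under 0.05 by limma over all 16492 probe sets. By that rule 0.115% of all probe sets were called, and 0 of the 68 members, whose adjusted p lay between 0.0947 and 0.987. At an unadjusted p under 0.05, 7 members were lower in the knockout, which is 10.3% of them against 5.63% of all probe sets. They were Dnajc12, Hspb6, Hspa1b, Hspa8, Dnaja4, Dnajb6 and Hspb8. Only Dnajc28 and Hsf2bp were higher by that rule, 2.94% of members against 5.66% of all probe sets. The groups did not overlap, with the knockout lower, for Dnajc12 alone (1.47% of members against 3.25% of all probe sets) and, with the knockout higher, for Hsf2bp alone (1.47% against 3.42%).

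Most members differed little between the genotypes. The log2 difference, knockout minus wild type, was under 0.2 in size for 56 of 68 members (82.4%) and for 81.7% of all probe sets. Its median was 0.02 over the members, with 35 higher and 33 lower, and 0.02 over all probe sets. Members with brighter probe sets lay lower. Of the 48 with a mean of at least 6, 32 were lower and 16 higher, with a median of -0.079, while 50.7% of all 10041 probe sets of that brightness were lower. That median was -0.050 without wild-type replicate 2, and -0.14, with 38 of 48 lower, when knockout replicate 2 and wild-type replicate 4 were both left out. Of the 20 dimmer members, 19 were higher, against 66.5% of all dimmer probe sets. The table held no detection calls, so how much of a dim value is background was not tested. Across the families with more than 1 gene the medians ran from -0.18 for Dnaja to 0.11 for Hsf. These 2 families also differed in brightness, since 0 of 4 Dnaja and 3 of 4 Hsf genes had a mean under 6.

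**Figure D1:**
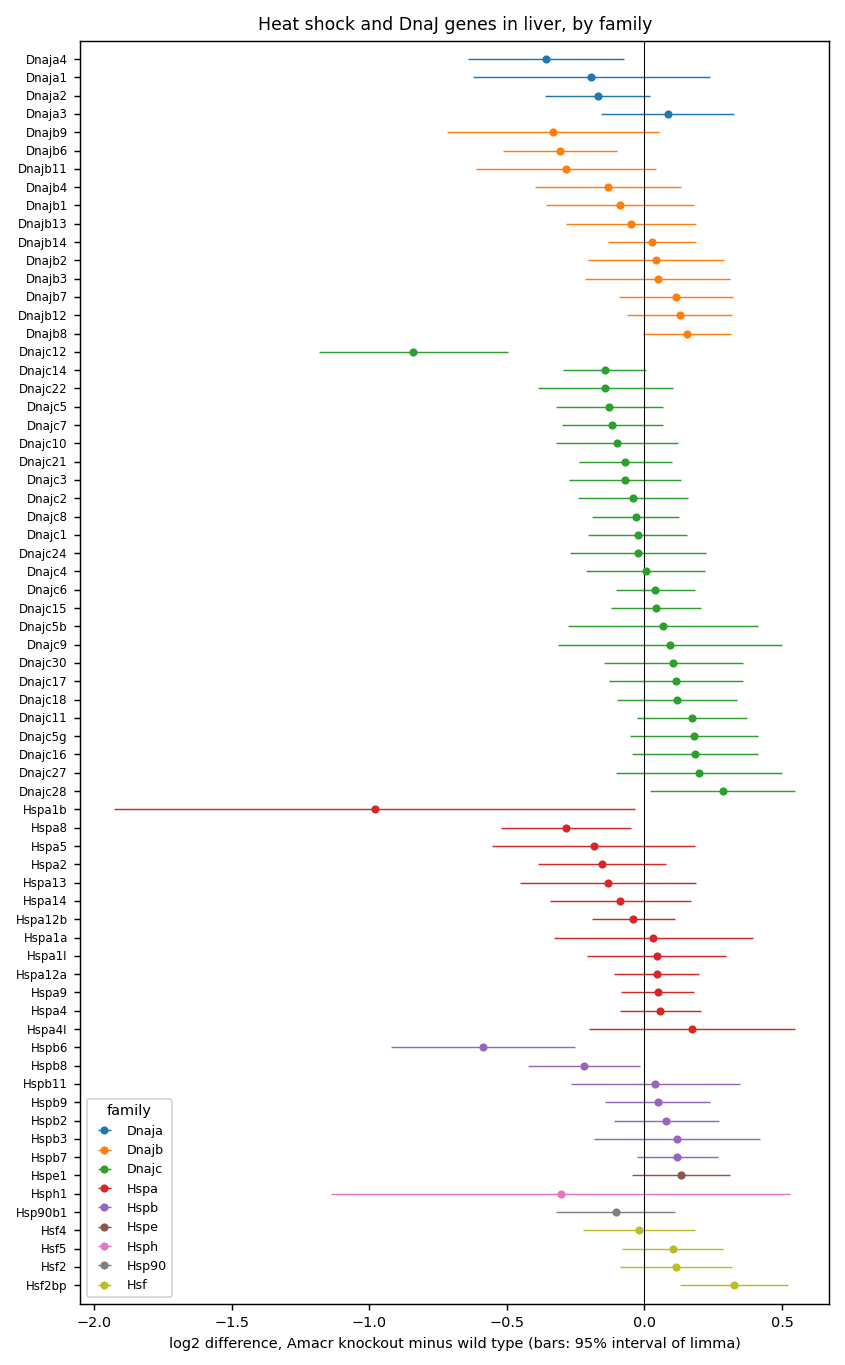
Log2 difference, knockout minus wild type, for each of the 68 members, grouped by family and ordered by size within it. Points are limma estimates over 4 arrays against 4 and bars are their 95% intervals, unadjusted. Hspa1b, at -0.98, was lowest but had the widest interval, and Dnajc12 at -0.84 and Hspb6 at -0.59 followed with narrower ones.

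Dnajc12 had the smallest p of all members. It encodes a DnaJ protein that chaperones the aromatic amino acid hydroxylases, among them phenylalanine hydroxylase of the liver, and human mutations in it raise blood phenylalanine. It read 9.39, 9.33, 8.97 and 9.03 in wild type and 8.52, 8.62, 8.21 and 8.01 in the knockout, here and below in the order of the replicate numbers. All 4 knockout arrays lay below all 4 wild-type arrays. The wild-type mean was 9.18 ± 0.21 and the knockout mean 8.34 ± 0.28 (SD, n = 4 in each group). The knockout was thus 1.79-fold lower, by -0.84 on the log2 scale with an SE of 0.15 and a 95% interval from -1.18 to -0.50. Its limma adjusted p was 0.0947, which misses the threshold, and its exact two-sided permutation p was 0.0286, the smallest that 4 arrays against 4 can give. With array quality weights, which count knockout replicate 2 least, the limma adjusted p was 0.0370. That setting called 75 of the 16492 probe sets, against 19 without the weights.

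Of the 7 Hspb genes, 2 lay lower in the knockout and 5 did not, but 4 of those 5 were dim, with a mean under 6. Hspb6 encodes HSP20, known from muscle, where it is a target of cyclic nucleotide signalling. It read 8.33, 8.18, 8.32 and 7.88 in wild type and 7.95, 7.32, 7.49 and 7.60 in the knockout. Only knockout replicate 1 reached into the wild-type range, just above wild-type replicate 4. The log2 difference was -0.59 (SE 0.15, 95% interval -0.92 to -0.25), with a limma adjusted p of 0.179 and an exact permutation p of 0.0571. Hspb8 encodes HSP22, which works with the co-chaperone Bag3 to send misfolded proteins to autophagy. It read 10.67, 10.62, 10.59 and 10.60 in wild type and 10.16, 10.42, 10.43 and 10.59 in the knockout, where replicate 4 alone met the wild-type level. Its log2 difference was -0.22 (SE 0.09, limma adjusted p = 0.409). Hspb7 lay at 0.12 (adjusted p = 0.525), and the 4 others, Hspb2, Hspb3, Hspb9 and Hspb11, lay between 0.04 and 0.12. Of these 5 genes only Hspb11, with a mean of 7.53, was not dim.

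The stress-inducible chaperones were described as a list of 12, of which 8 were measured: Hspa1a, Hspa1b, Hspa8, Hsph1, Dnajb1, Dnaja1, Hspb8 and Hspe1. In the knockout 6 of the 8 had lower means and 2 higher, none past the threshold, with a median log2 difference of -0.21. The promoters of the gene with the largest difference and the gene with the largest spread are shown because members of the list are classical targets of heat shock factor. Each covers 250 bases before to 50 after the annotated start, from RefSeq on GRCm38.p6, written 5′ to 3′ on the gene's strand. Capitals mark the heat shock element core, GAANNTTC or TTCNNGAA, which reads the same on both strands, and capitals that run on mark overlapping cores. Hspa1b lies at chr17:34959189-34959488 on the minus strand, and Hsph1 at chr5:149636287-149636586 on the minus strand, 1 of its 2 annotated windows.
Hspa1b: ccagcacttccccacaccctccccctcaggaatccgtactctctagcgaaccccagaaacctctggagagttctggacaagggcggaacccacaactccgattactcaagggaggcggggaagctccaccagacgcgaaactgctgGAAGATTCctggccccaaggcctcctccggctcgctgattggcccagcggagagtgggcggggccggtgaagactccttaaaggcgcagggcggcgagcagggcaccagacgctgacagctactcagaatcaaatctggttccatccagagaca
Hsph1: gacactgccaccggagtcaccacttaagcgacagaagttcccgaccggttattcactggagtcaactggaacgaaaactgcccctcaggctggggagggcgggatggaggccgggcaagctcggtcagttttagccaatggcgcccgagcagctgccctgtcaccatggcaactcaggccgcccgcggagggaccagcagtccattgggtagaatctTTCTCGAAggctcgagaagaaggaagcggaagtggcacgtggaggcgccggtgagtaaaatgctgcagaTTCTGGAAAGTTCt

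The core stood 104 bases before the start in Hspa1b, and the same core stood at the same place in Hspa1a, whose window matched that of Hspa1b in 296 of 300 bases. In the Hsph1 window printed, the core nearest before the start lay 33 bases from it. Promoter windows were matched for 55 of the 68 members, 69 windows in all. The core was found in 17 of these (24.6%), from 15 genes, and in 15.1% of all 32851 windows. A core with 1 more unit, 3 in all, GAANNTTCNNGAA or TTCNNGAANNTTC, was found in 5 windows (7.25%) of Dnajb6, Hspe1 and Hsph1, and in 0.603% of all windows. A match describes the letters and is not evidence of binding.

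Hspa1b encodes the classic inducible HSP70, and its values were 9.66, 9.77, 8.36 and 9.04 in wild type and 7.88, 7.66, 7.98 and 9.39 in the knockout. Knockout replicates 1, 2 and 3 lay below every wild-type array, and replicate 4 lay above wild-type replicates 3 and 4. The mean log2 difference of -0.98, or 1.97-fold lower, had an SE of 0.42 and a 95% interval from -1.93 to -0.03 (limma adjusted p = 0.424, exact permutation p = 0.0857). Its near-identical copy Hspa1a was dim, at 4.32, 4.53, 4.18 and 4.41 in wild type and 4.26, 4.20, 4.21 and 4.90 in the knockout, with a difference of 0.03 (limma adjusted p = 0.949). Replicate 4 was again the highest knockout array. Transcripts of such copies can bind each other's probes, so the pair's values are uncertain as to which copy they report.

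Hsph1, which encodes the HSP110 nucleotide exchange factor HSP105, had the widest spread of all members in the knockout. It read 9.46, 9.19, 9.41 and 8.59 in wild type and 8.17, 8.31, 9.03 and 9.92 in the knockout. Replicates 1 and 2 lay below all wild-type arrays and replicate 4 above them all. The log2 difference of -0.31 (SE 0.37, limma adjusted p = 0.790) was smaller than the knockout SD of 0.80. It was -0.66 without knockout replicate 4, -0.08 without replicate 1 and -0.12 without replicate 2, and -0.50 without wild-type replicate 4.

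Hspa8 encodes HSC70, which was on the list although it is known as the constitutive HSP70 of the cytosol. Its values were 13.84, 13.90, 13.64 and 13.63 in wild type and 13.41, 13.37, 13.36 and 13.73 in the knockout. Replicates 1, 2 and 3 lay below every wild-type array, and replicate 4 lay within the wild-type range. The log2 difference was -0.29 (SE 0.11, 95% interval -0.52 to -0.05, limma adjusted p = 0.354). Dnaja1, a farnesylated DnaJ partner of HSC70, read 12.27, 12.17, 12.20 and 11.69 in wild type and 11.75, 11.44, 12.22 and 12.15 in the knockout, so that only knockout replicate 2 left the wild-type range. Dnajb1, or HSP40, read 8.94, 9.10, 8.76 and 8.75 against 8.66, 8.82, 8.64 and 9.08. Their log2 differences were -0.19 (limma adjusted p = 0.735) and -0.09 (adjusted p = 0.818), both within the spread, and Dnaja1 ran from -0.32 without wild-type replicate 4 to -0.04 without knockout replicate 2. Hspe1, the lid of the mitochondrial chaperonin, read 9.20, 9.11, 9.10 and 9.12 in wild type and 9.15, 9.46, 9.22 and 9.23 in the knockout. Unlike the others it lay higher in knockout replicates 2, 3 and 4 than in any wild-type array, by 0.13 in the mean (adjusted p = 0.562).

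**Figure D2:**
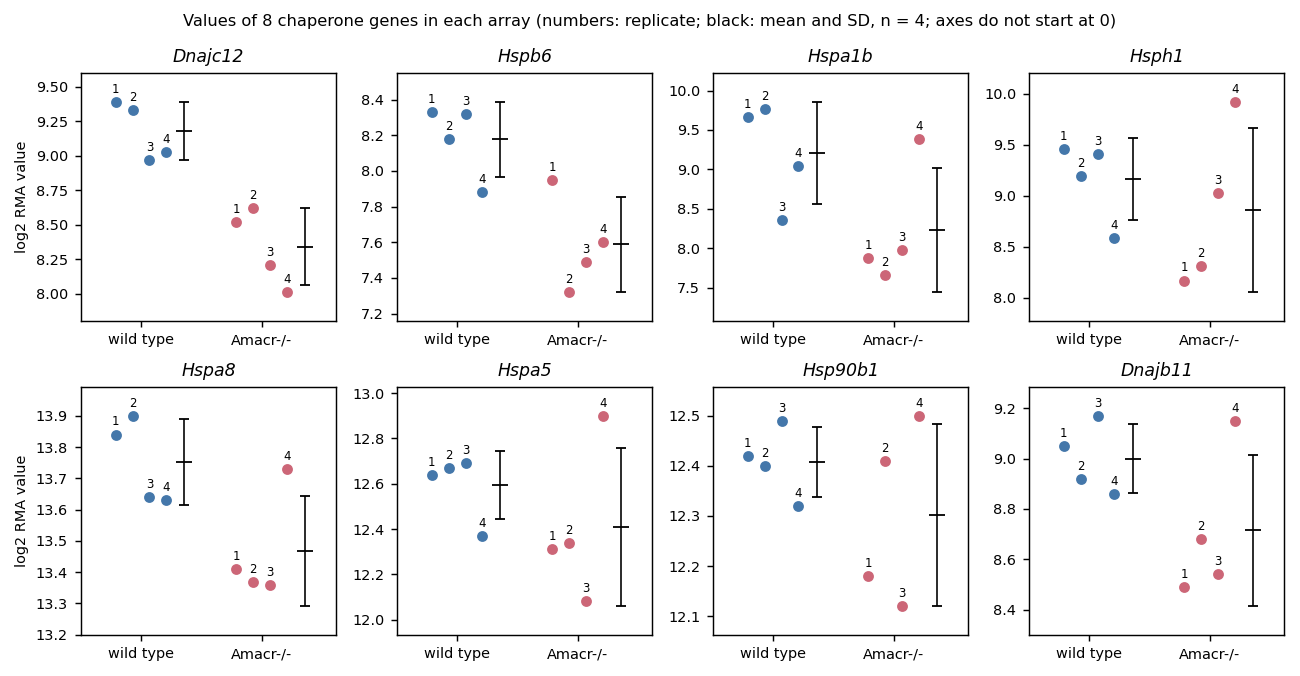
Log2 RMA value of 8 chaperone genes in each array, with the replicate number beside each point and the mean ± SD (n = 4) in black. The vertical axes differ and do not start at 0. Dnajc12 separates the groups, while for Hspa1b, Hsph1, Hspa8, Hspa5, Hsp90b1 and Dnajb11 knockout replicate 4 is the highest knockout array.

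The endoplasmic reticulum chaperones were a list of 9, of which 8 were measured: Hspa5, Hspa13, Hsp90b1, Dnajb9, Dnajb11, Dnajc1, Dnajc3 and Dnajc10. All 8 means were lower in the knockout, none past the threshold, with a median log2 difference of -0.12. Without wild-type replicate 2, or without knockout replicate 3, 7 of the 8 were lower. The promoters of Hspa5, Hsp90b1 and Dnajc3 are shown because they alone, among the 55 members with a window, held the endoplasmic reticulum stress element, CCAAT and CCACG with 9 bases between them, searched on both strands and marked in capitals. They were 3 of 69 member windows (4.35%), against 0.119% of all windows. Hspa5 lies at chr2:34771840-34772139 on the plus strand, Hsp90b1 at chr10:86705395-86705694 on the minus strand and Dnajc3 at chr14:118937682-118937981 on the plus strand (GRCm38.p6, RefSeq).
Hspa5: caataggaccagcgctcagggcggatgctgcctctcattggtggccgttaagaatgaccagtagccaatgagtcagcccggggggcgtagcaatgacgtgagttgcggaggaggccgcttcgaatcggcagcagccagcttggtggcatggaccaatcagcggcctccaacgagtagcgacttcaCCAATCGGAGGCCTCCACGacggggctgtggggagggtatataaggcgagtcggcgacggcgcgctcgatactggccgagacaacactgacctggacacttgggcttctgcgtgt
Hsp90b1: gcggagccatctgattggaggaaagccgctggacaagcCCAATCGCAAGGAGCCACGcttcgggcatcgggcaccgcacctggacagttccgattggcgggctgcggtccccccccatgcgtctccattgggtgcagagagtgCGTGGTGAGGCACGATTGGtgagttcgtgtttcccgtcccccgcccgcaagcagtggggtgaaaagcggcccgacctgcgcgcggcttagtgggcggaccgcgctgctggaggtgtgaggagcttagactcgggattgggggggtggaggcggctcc
Dnajc3: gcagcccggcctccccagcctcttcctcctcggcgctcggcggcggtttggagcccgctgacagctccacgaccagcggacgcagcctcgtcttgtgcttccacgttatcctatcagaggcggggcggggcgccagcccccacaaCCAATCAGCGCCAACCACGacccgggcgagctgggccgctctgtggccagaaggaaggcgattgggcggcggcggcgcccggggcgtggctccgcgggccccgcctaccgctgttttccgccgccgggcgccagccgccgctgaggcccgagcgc

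The element began 65 bases before the start in Hspa5 and 105 before it in Dnajc3, and Hsp90b1 held it at 212 and, on the opposite strand, at 107 bases before the start. The absence of these letters from the other windows says nothing of the factors that bind there.

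Hspa5 encodes BiP, the HSP70 of the endoplasmic reticulum. It read 12.64, 12.67, 12.69 and 12.37 in wild type and 12.31, 12.34, 12.08 and 12.90 in the knockout. Knockout replicates 1, 2 and 3 lay below all wild-type arrays and replicate 4 above them all, so that the difference of -0.19 (SE 0.16, limma adjusted p = 0.697) was smaller than the knockout SD of 0.35. It was -0.35 without knockout replicate 4 and -0.08 without replicate 3. Hsp90b1 encodes GRP94, the HSP90 of the same compartment, and read 12.42, 12.40, 12.49 and 12.32 against 12.18, 12.41, 12.12 and 12.50. Dnajc3 encodes p58IPK, a DnaJ partner of BiP that also restrains the kinase PERK, and read 10.35, 10.23, 10.46 and 10.28 against 10.13, 10.19, 10.25 and 10.47. In both, knockout replicate 4 was just above every wild-type array and replicate 1 was below them all. The log2 differences were -0.11 (SE 0.10, limma adjusted p = 0.706) and -0.07 (adjusted p = 0.805).

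Dnajb11, or ERdj3, binds nascent secreted proteins together with BiP. It read 9.05, 8.92, 9.17 and 8.86 in wild type and 8.49, 8.68, 8.54 and 9.15 in the knockout, with replicates 1, 2 and 3 below every wild-type array and replicate 4 within the wild-type range. The log2 difference was -0.29 (SE 0.14, limma adjusted p = 0.496). Dnajb9, or ERdj4, helps to degrade misfolded proteins and to hold the stress sensor IRE1 inactive. It read 11.30, 11.73, 11.05 and 11.16 against 11.22, 10.67, 10.85 and 11.17, a difference of -0.33 (adjusted p = 0.499), and here replicates 2 and 3 were the low ones. Hspa13, a microsomal HSP70 relative, read 8.67, 8.79, 8.90 and 8.42 against 8.53, 8.45, 8.35 and 8.92, with replicate 4 again above all wild-type arrays. Its difference was -0.13 (adjusted p = 0.759).

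The last 2 genes of the list did not set replicate 4 apart. Dnajc10, or ERdj5, a reductase that opens disulfide bonds of proteins bound for degradation, read 8.16, 8.06, 8.01 and 8.17 against 7.83, 8.27, 7.96 and 7.94. Dnajc1, a membrane DnaJ protein, read 9.30, 9.43, 9.23 and 9.31 against 9.22, 9.46, 9.19 and 9.30. Their highest knockout array was replicate 2, and their log2 differences were -0.10 (adjusted p = 0.732) and -0.03 (adjusted p = 0.925).

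**Figure D3:**
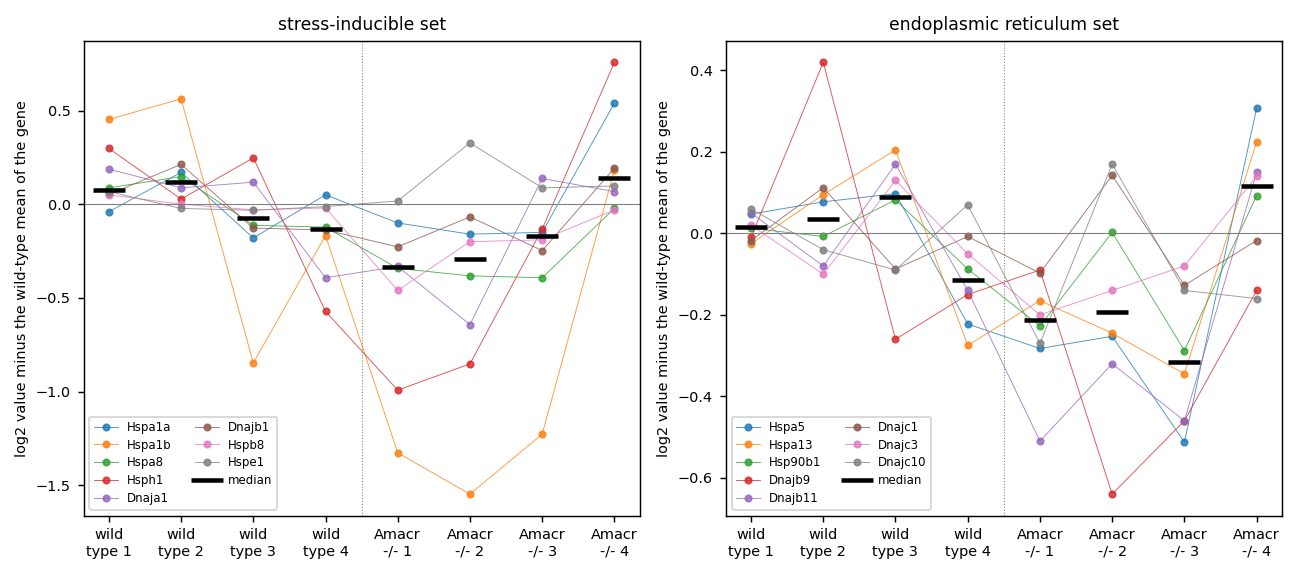
Log2 value of each gene minus its wild-type mean, by array, for the 8 measured stress-inducible genes (left) and the 8 measured endoplasmic reticulum genes (right), with the median of each array as a black bar. Lines only join the points of 1 gene, since replicates have no order. The medians of knockout replicates 1, 2 and 3 lay at -0.34, -0.29 and -0.17 on the left and -0.21, -0.19 and -0.32 on the right, and those of replicate 4 at 0.14 and 0.12.

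The knockout arrays thus differed among themselves in both lists. Relative to the wild-type mean of each gene, the median deviation of the stress-inducible genes was -0.34, -0.29, -0.17 and 0.14 in knockout replicates 1 to 4, while the wild-type arrays lay between -0.13 and 0.12. For the endoplasmic reticulum genes it was -0.21, -0.19, -0.32 and 0.12, with wild type between -0.11 and 0.09. Replicate 4 was the highest knockout array for 6 of 8 stress-inducible and 5 of 8 endoplasmic reticulum genes, for 33.8% of all members and for 24.6% of all probe sets. It was the lowest for 0 of 8 in each list. Below every wild-type array lay 5, 5, 4 and 0 of the 8 stress-inducible genes in replicates 1 to 4, and 6, 4, 7 and 1 of the 8 endoplasmic reticulum genes. Over all probe sets these shares were 20.0%, 32.0%, 21.7% and 21.9%, highest in replicate 2. Every gene of the 2 lists but Hspa1a had a mean of at least 6. Over all probe sets of that brightness the shares were 24.3%, 29.7%, 29.0% and 28.6%. Without replicate 4 the median difference of the stress-inducible list was -0.28 and that of the endoplasmic reticulum list -0.21, still with 0 genes past the threshold. Without replicate 1 or without replicate 2 the stress-inducible median was -0.11, and without replicate 3 the endoplasmic reticulum median was -0.07.

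Other measures also differed between the knockout arrays. The mean log2 level of 9 Kupffer cell and macrophage markers ranged from 8.74 to 9.73 in wild type, and the knockout arrays read 9.39, 9.14, 8.58 and 8.16, with replicate 4 lowest. The mean of 6 exocrine pancreas markers was 8.09 in replicate 1, against 6.24 to 6.45 in wild type and 6.03 as the lowest knockout value. Replicate 1 lay above all wild-type arrays for 5 of the 6, but Cela1 read 9.27 there against 9.32 to 9.77 in wild type. Markers of sinusoidal endothelium (7 genes) lay at 8.05 to 8.49 against 8.08 to 8.51 in wild type, and those of stellate cells and fibroblasts (7 genes) at 7.63 to 8.61 against 7.72 to 8.10. Erythroid markers (2 genes) lay at 7.54 to 7.80 in the knockout and 7.24 to 7.46 in wild type, a gap that came from Alas2, since the values of Slc4a1 overlapped. For cholangiocytes the ranges were 5.04 to 5.63 and 5.09 to 5.36, for lymphocytes 5.62 to 5.72 and 5.54 to 6.11, and for neutrophils 5.85 to 6.37 and 6.07 to 6.56, knockout first. The median deviation of 16 clock genes ranged from -0.10 to 0.03 in wild type, and the knockout arrays read -0.41, -0.75, -0.01 and -0.09. This signed median can hide opposite moves, since 11 of the 16 had lower and 5 higher means. Per2 and Bhlhe40 were lower without overlap (3.25% of all probe sets were) and Arntl higher without overlap (3.42%). In knockout replicates 1 to 4, Per2 read 6.13, 6.16, 6.97 and 7.01 against 7.21 to 7.81 in wild type. Arntl read 6.83, 7.66, 5.95 and 5.74 in the same knockout arrays, against 5.21 to 5.38 in wild type. No gene of these lists passed the threshold, and the part of cell makeup or of the clock in the chaperone values was not tested.

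Among the other Dnaja and Dnajb genes the larger differences were also downward. Dnaja4, a cytosolic DnaJ protein described as a target of the sterol-regulated factor SREBP, read 6.48, 6.64, 6.33 and 6.35 in wild type and 6.00, 6.33, 5.80 and 6.24 in the knockout. Its log2 difference was -0.36 (SE 0.13, limma adjusted p = 0.330), with only knockout replicate 2 at the edge of the wild-type range. Dnajb6, which keeps aggregation-prone proteins soluble, read 6.38, 6.45, 6.20 and 6.51 against 6.12, 5.93, 6.23 and 6.03. The groups met only where knockout replicate 3 lay just above wild-type replicate 3, and the difference was -0.31 (SE 0.09, adjusted p = 0.260). Dnaja2 lay at -0.17 (adjusted p = 0.489) and the dim Dnajb8 at 0.16 (adjusted p = 0.449). The mitochondrial Dnaja3 lay at 0.09, and the 7 other Dnajb genes lay between -0.13 and 0.13.

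Apart from Dnajc12, the Dnajc family stayed close to wild type, with a median difference over its 25 genes of 0.005 and 13 higher means. Dnajc28 had the largest upward difference, from 6.65, 6.88, 6.83 and 6.80 to 6.99, 6.79, 7.33 and 7.19, or 0.29 (SE 0.12, limma adjusted p = 0.404). Replicate 2 alone stayed within the wild-type range. Dnajc14 lay at -0.15 (adjusted p = 0.456), between 7.95 and 8.05 in wild type and between 7.77 and 7.97 in the knockout. Dnajc9, which also chaperones histones, read 7.50, 7.60, 7.31 and 7.15 against 7.08, 7.98, 7.44 and 7.43, so that the knockout arrays held both its lowest and its highest value. Its difference was 0.09 (adjusted p = 0.871), and -0.07 without knockout replicate 2. The other 18 Dnajc genes lay between -0.14 and 0.20, with adjusted p from 0.504 to 0.987.

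The remaining Hspa genes differed little between the genotypes. Hspa9, or mortalin, the HSP70 of mitochondria, read 11.05, 10.99, 10.94 and 11.03 in wild type and 11.02, 11.12, 11.03 and 11.03 in the knockout, a difference of 0.05 (95% interval -0.09 to 0.18). Its SD was 0.05 in both groups, which contrasts with 0.35 for Hspa5 in the knockout. Hspa2, a relative best known from the testis, lay at -0.16 (limma adjusted p = 0.602). Hspa9 and the 6 other Hspa genes not yet described lay between -0.09 and 0.17.

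Of the heat shock factors, Hsf2, Hsf4 and Hsf5 were measured, and none separated the groups. Hsf2 was dim, at 3.37 to 3.76 in wild type and 3.60 to 3.77 in the knockout, a difference of 0.12 (limma adjusted p = 0.660). Hsf4 lay at 6.10 to 6.36 and 6.06 to 6.37, a difference of -0.02 (adjusted p = 0.946), and Hsf5 differed by 0.10 (adjusted p = 0.663). The rule also took in Hsf2bp, whose product is no heat shock factor but a binding partner of HSF2 known from meiosis. It read 5.45, 5.23, 5.48 and 5.49 in wild type and 5.78, 5.58, 5.73 and 5.86 in the knockout, with every knockout array above every wild-type array. The difference was 0.33 (SE 0.09, adjusted p = 0.204, exact permutation p = 0.0286) at a dim level.

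The spread between knockout arrays was larger than that between wild-type arrays for most members, as it was for most probe sets. The median SD of a member was 0.12 in wild type and 0.17 in the knockout, a ratio of 1.42, and over all probe sets the ratio was 1.36. The knockout SD was the larger for 49 of 68 members (72.1%) and for 66.7% of all probe sets. By family the ratio of median SDs was 1.71 for Dnaja, 1.18 for Dnajb, 1.60 for Dnajc, 1.50 for Hspa, 2.88 for Hspb and 0.99 for Hsf. In Hspb the knockout SD was larger for 7 of 7 genes, but 4 of the 7 were dim and the median wild-type SD was 0.06. The ratio was 1.78 for members with a mean under 6 and 1.29 for brighter ones, against 1.34 and 1.37 for all probe sets so divided. Over all members the ratio was 1.22 both without knockout replicate 2 and without replicate 4, and over all probe sets it was 1.04 without replicate 2 and 1.35 without replicate 4.

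Replicate 4 carried much of the spread in the inducible and secretory chaperones. The ratio was 1.73 for the stress-inducible list and 1.01 without replicate 4, and 1.84 for the endoplasmic reticulum list and 1.22 without it. The 6 largest knockout SDs were those of Hsph1 (0.80), Hspa1b (0.79), Dnajc9 (0.37), Dnaja1 (0.36), Hspa5 (0.35) and Hspa1a (0.34). Without replicate 4 the SD was 0.46 for Hsph1, 0.16 for Hspa1b, 0.14 for Hspa5 and 0.03 for Hspa1a, but 0.45 for Dnajc9 and 0.39 for Dnaja1. For Dnajc9 the array apart was replicate 2, without which the SD was 0.21. In wild type the SD of Hspa1b was already 0.65 and that of Hsph1 0.40, so these 2 genes varied between animals of both genotypes.

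**Figure D4:**
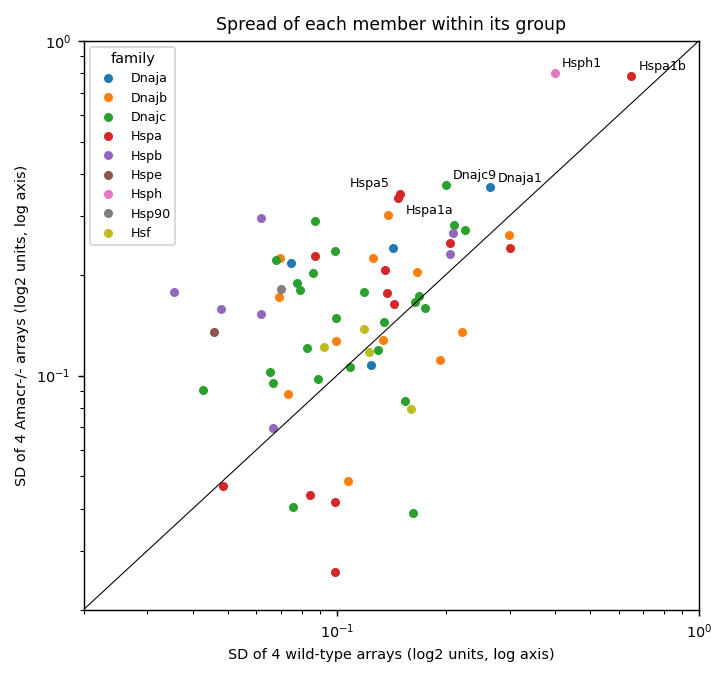
SD of each member over the 4 wild-type arrays (horizontal) and the 4 Amacr-/- arrays (vertical), in log2 units on log axes, coloured by family. The line marks equal SDs, and 49 of 68 points lie above it. The 6 genes with the largest knockout SD are named, with Hsph1 at 0.80 and Hspa1b at 0.79.

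Genes that work with these chaperones were taken from lists. Of 32 co-chaperones of HSP70 and HSP90, 23 had lower and 9 higher means in the knockout, 0 past the threshold, with a median of -0.06. All but 1 had a mean of at least 6, and 50.7% of all probe sets of that brightness were lower. The groups did not overlap, with the knockout lower, for 3 of the 32. The same held for 3.25% of all probe sets, and for 480 of the 10041 with a mean of at least 6. The smallest p was that of Stub1, or CHIP, the ubiquitin ligase that takes over HSP70 clients for degradation. It went from 9.70, 9.67, 9.67 and 9.65 to 9.49, 9.48, 9.48 and 9.44, tight in both groups and without overlap, a difference of -0.20 (SE 0.05, limma adjusted p = 0.210). Grpel2, a mitochondrial nucleotide exchange factor, followed at 0.39 (SE 0.13, adjusted p = 0.316). Of 13 genes of the TRiC chaperonin and prefoldin, which fold actin and tubulin, 10 were lower and 3 higher, with a median of -0.07. Cct8 at -0.20 (adjusted p = 0.421) and Pfdn6 at -0.14 (adjusted p = 0.480) had the smallest p, and 0 passed.

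The sensors and targets of the unfolded protein response were a list of 21, with Hspa5 and Hsp90b1 among them. In the knockout 16 had lower means (76.2%), against 50.7% of all probe sets with a mean of at least 6, and 0 passed the threshold. Atf6, a sensor that itself becomes a transcription factor, read 8.48, 8.45, 8.54 and 8.46 in wild type and 8.23, 8.23, 8.0 and 8.44 in the knockout. Its difference was -0.26 (limma adjusted p = 0.340), and that of Ern1, which encodes IRE1, was -0.22 (adjusted p = 0.353). The groups did not overlap for these 2 of the 21 genes, with the knockout lower. The same held for 3.25% of all probe sets, and for 480 of the 10041 with a mean of at least 6. Knockout replicate 4 came closest to wild type in both. Over the 19 genes of this list that were not members, the median deviation was -0.11, -0.12, -0.21 and 0.15 in knockout replicates 1 to 4. Replicate 3 was lowest and replicate 4 highest, as in the endoplasmic reticulum list.

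Of 20 other stress genes and targets of HSF1, the main heat shock factor, 13 were higher and 7 lower, 0 past the threshold. As a list they did not follow the same arrays: replicate 2 was the highest knockout array for 10 of the 20 and replicate 4 for 3. The list mixes HSF1 targets with other stress genes, so it does not show what HSF1 targets alone did. Mt1, which encodes a metal-binding metallothionein, read 9.14, 8.17, 8.27 and 9.40 in wild type and 8.88, 9.72, 12.40 and 11.37 in the knockout, high in replicates 3 and 4, a difference of 1.85 (SE 0.70, limma adjusted p = 0.362). Ier3, an immediate early gene, had the smallest p of the list at -0.34 (adjusted p = 0.354).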

How the data were processed

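Liver RNA of 8 mice was measured on 8 arrays. The deposited table held log2 values with 2 decimals, made by the authors with RMA, which corrects background, normalizes between arrays and summarises probes, per the submitters' processing notes. The sources used here gave neither the array type nor the software or a batch step. Of 16556 probe sets, 64 controls were left out. GEO's platform annotation named 1 gene for 15270 of the 16492 tested, several for 0 and none for 1222, and all 15270 matched a RefSeq table (GRCm38.p6). No 2 arrays were identical. The number of arrays limits the precision: the median half-width of a member's 95% interval was 0.23.

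The test was limma 3.58.1 under R 4.3.3 (lmFit, eBayes, all 8 arrays, genotype as the only term, two-sided), with Benjamini-Hochberg adjustment over 16492 probe sets and a threshold of 0.05. Adjusted p-values are from this test unless another setting is named beside them. Exact permutation tests over arrays served single genes. Intervals are unadjusted. The steps were tested on simulated data. Summaries and motif searches used Python 3.11.15 with pandas 2.3.3. Scan dates were not used here, so no batch was tested.

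The members and lists were chosen with earlier results of these data known. Named members were any past the threshold, the stress-inducible and endoplasmic reticulum lists, Hsf2 and Hsf4, the 3 smallest p of each family, the 6 largest knockout SDs, and members without overlap that differed by at least 0.3. From other lists the 2 smallest p were named. Hspa9, Dnaja3 and Arntl were described after their values were seen. The alternatives were eBayes with a trend, array quality weights, arrays centred on their median, a mean of at least 6, controls included, a replicate block, and arrays left out.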

Additional observations from a re-analysis of the deposited data

Results flagged for a closer look

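The 62 groups of 4 arrays tested were 2 for each of the 31 members named by rule. In 4 of them 1 array stood far from the other 3 by Dixon's test, where chance gives about 1 in 20. Some members were named for a large knockout SD or for groups without overlap, so that rate need not hold here. In knockout replicate 4, Hspa1a stood at 4.90, with the next array at 4.26, and Hspa8 at 13.73, with the next at 13.41. In wild-type replicate 4, Hspa5 stood lowest at 12.37, with the next at 12.64. In wild-type replicate 2, Hsf2bp stood lowest at 5.23, with the next at 5.45.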

How the results depend on the processing

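Over 15 alternatives, members past the limma threshold numbered 0 higher in each, and 0 lower in each but 1. The exception was array quality weights, with 1 lower gene, Dnajc12, but 75 of all probe sets passed there, against 19 without the weights. Over all settings the log2 difference of Dnajc12 ranged from -0.98 to -0.73 and its limma adjusted p from 0.0370 to 0.292. Of 459 values of named members under an alternative, 447 kept direction and side of the threshold and 11 turned. The 11 came from 4 genes with differences near 0. Dnajc9 was at -0.019 with array weights, at -0.15 without knockout replicate 2 and wild-type replicate 4, and between -0.073 and 0.23 when 1 array was left out. Hsf4 was at 0.0098 with array weights, at 0.010 without those 2 arrays, and between -0.088 and 0.038 when 1 array was left out. Leaving out 1 array put Dnajc1 between -0.081 and 0.013 and Hspa1a between -0.14 and 0.10. The median difference of all members was -0.079 among those with a mean of at least 6, which leaves out the dim ones, and ran from -0.027 to 0.018 when 1 array was left out. The ratio of knockout to wild-type SD then ran from 1.22 to 1.64.

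With the replicate number as a block, 0 members passed higher and 0 lower, and 1 probe set passed in all, against 19 without the block. The numbers were not taken to pair the samples: deviations of same-numbered arrays correlated at 0.050, -0.027, 0.092 and -0.12, and not every array correlated best with its own number. Calls over all probe sets ranged from 1 to 75 over the settings. Dim members may hold background, which was not tested.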
